A study of Homo sapiens with 16 samples.

Results

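Genes of the type I interferon response, namely IFIT1, IFIT2, IFIT3, ISG15, MX1, OAS1, IRF7, IFI6 and IFI27, were examined in RNA sequencing data from HT55 and SW948 cells, which are established human colorectal cancer cell lines. These 9 genes were chosen by symbol, and all 9 were found among the 54127 gene identifiers of the count data. Each line had been exposed to 5 µM itraconazole, an azole antifungal that blocks sterol synthesis, or to DMSO, the solvent, and RNA was extracted at day 6. The 4 groups (line by treatment) held 4 libraries each, described as biological quadruplicates in the study's methods, and each line is a single cell line. The comparisons were itraconazole against DMSO within each line, SW948 against HT55 under DMSO, and the difference between the responses of the lines, here called the interaction.

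Type I interferons are secreted by cells that sense foreign or misplaced nucleic acid, and they act through the receptor chains IFNAR1 and IFNAR2 and the kinases JAK1 and TYK2. Transcription factors that include STAT2 and IRF9 then bind interferon-stimulated response elements (ISREs) in front of target genes. Many of the proteins made from these targets block viral replication, and several can be expressed at a low level in cells that have met no interferon, tumour cells among them.

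The elements that the pathway acts through were looked for in the RefSeq promoter windows (GRCh38.p14), each running from 250 bases before to 50 bases after a transcription start. Windows were found for 7 of the 9 genes, 11 windows in all, and none was matched for IFIT2 or IRF7. The ISRE core was searched on both strands as GAAANNGAAA. It occurred in 9 of the 11 windows, beside 3.57% of all 35116 windows. By gene it occurred in 6 of the 7, beside 4.38% of all 27305 genes with a window. Among the windows of the other interferon-stimulated genes listed here, 54.8% of 62 held it, and by gene 65.3% of 49. OAS1 had no ISRE core match in its window. Only this form of the core was searched, so an element with another spacing or outside the window would be missed. The gamma-activated site, another element of interferon signalling, searched as TTCNNNGAA, occurred in 7.66% of all windows, in 24.2% of the 62 windows of the other interferon-stimulated genes and in 4 of the 11 windows here. These were 1 of the 3 MX1 windows, the OAS1 window and both IFI27 windows, and the MX1 and IFI27 matches overlapped an ISRE core match. Such a match is a sequence description only. The stretches holding the ISRE core matches are printed 5′ to 3′ on the strand of the gene, with the matches in capitals, because 6 of the 7 genes with a window hold the motif. In order they lie at chr10:89392487-89392549, chr10:89327821-89327904 and chr10:89332415-89332507 for the first 3 lines, then chr1:1013364-1013419, chr21:41431834-41431883, chr1:27672256-27672368 on the minus strand, and chr14:94110608-94110670. The other 6 are on the plus strand.
IFIT1: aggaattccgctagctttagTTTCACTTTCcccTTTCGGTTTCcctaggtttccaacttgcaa
IFIT3, first start: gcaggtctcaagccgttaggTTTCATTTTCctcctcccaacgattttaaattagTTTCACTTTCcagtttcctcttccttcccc
IFIT3, other start: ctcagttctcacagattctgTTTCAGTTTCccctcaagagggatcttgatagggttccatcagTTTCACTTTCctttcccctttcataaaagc
ISG15: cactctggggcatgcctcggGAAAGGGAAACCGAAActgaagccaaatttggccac
MX1: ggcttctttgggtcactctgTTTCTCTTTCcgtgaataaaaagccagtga
IFI6: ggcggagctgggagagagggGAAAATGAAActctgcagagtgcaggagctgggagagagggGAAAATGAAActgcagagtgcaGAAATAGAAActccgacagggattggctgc
IFI27: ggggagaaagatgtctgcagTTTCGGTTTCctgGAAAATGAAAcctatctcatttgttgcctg

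In IFIT1 the matches began 116 and 103 bases before the start, and in ISG15, where they share bases, 113 and 107 bases before it. IFI6 held 3 matches in its window, more than any other window of the 9 genes. The IFI27 stretch lay in both of that gene's windows, and a further MX1 window had its match just past the start.

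Libraries held 8269406 to 11110814 counts in genes. Levels are given as counts per 1000000 (CPM) after TMM scaling over all 16 libraries. Calls were made with edgeR's quasi-likelihood test where the p-value, adjusted over every gene tested, was under 0.05. Itraconazole changed much of the transcriptome, so shares of called genes are printed beside the counts for the 9 genes. Scaling by plain gene totals moved the median log2 fold change of all genes by -0.16 in HT55, by -0.33 in SW948, by 0.20 between the lines and by -0.19 in the interaction. With that scaling the called genes split into 2280 higher and 4709 lower in HT55, in place of 3340 and 3213, and into 3147 and 6826 in SW948, in place of 4865 and 5165. Between the lines the split became 6134 higher and 3919 lower in place of 5059 and 4996, and for the interaction 2295 and 4929 in place of 3292 and 3849. One HT55 library, itraconazole replicate 3, stood closest to the controls on the first principal component of that line, at 14.8 against 34.3 to 48.8 for the other treated libraries and -35.6 to -33.5 for the controls. All 8 epithelial markers examined, EPCAM and KRT8 among them, were detected in every group. The 9 immune cell markers summed to 2 to 7 counts per library in all groups. The 7 stromal and endothelial markers matched summed to 13 to 18 counts in HT55 with DMSO, 29 to 36 with itraconazole, 33 to 59 in SW948 with DMSO and 80 to 109 with itraconazole. Their part in the results was not tested. COL1A1 made up 348 counts over the 4 treated SW948 libraries.

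**Figure D1:**
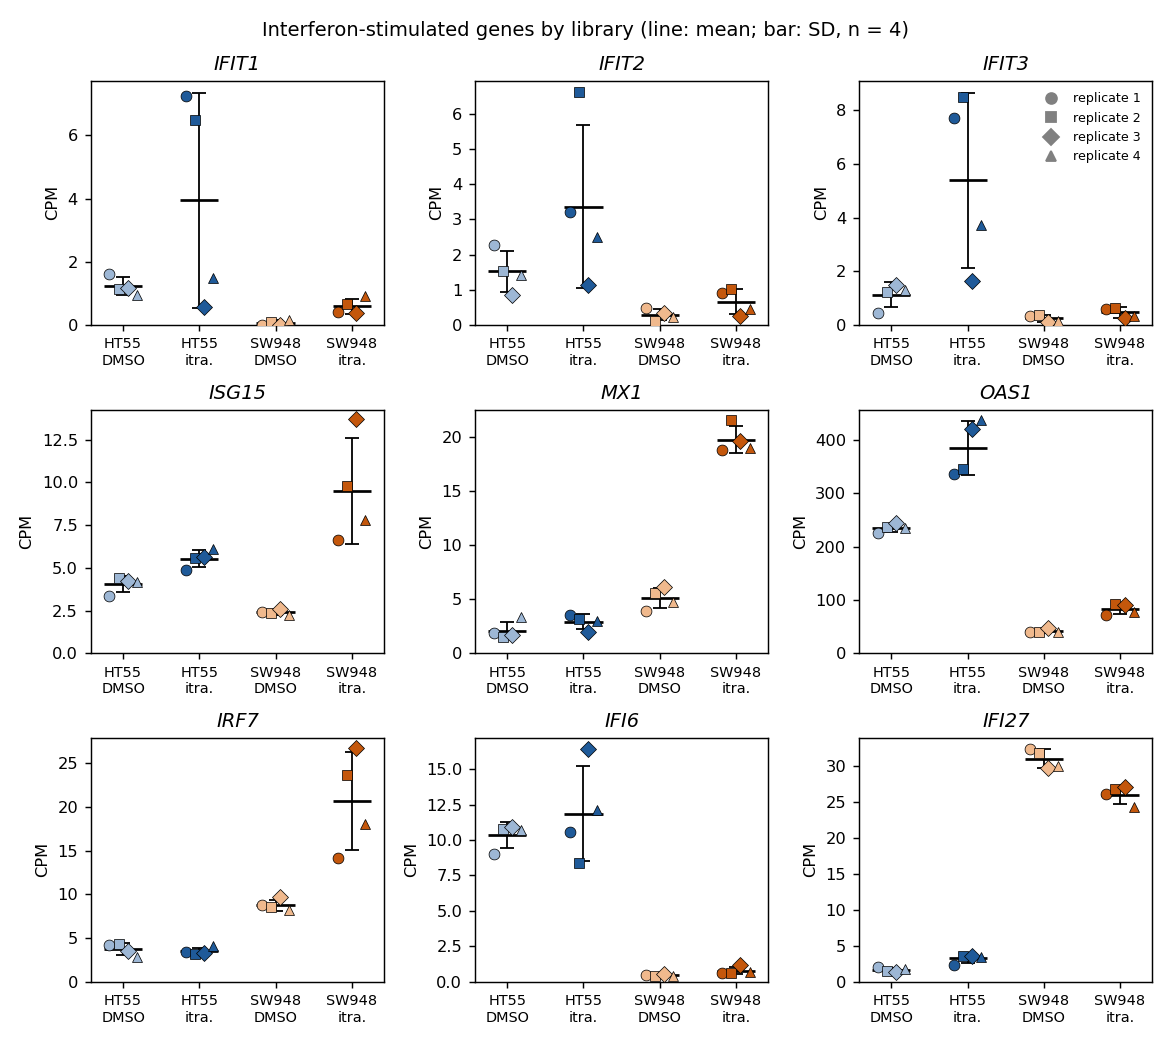
CPM of each gene (vertical axes, linear and starting at 0) in each library of the 4 groups, with a marker shape for each replicate number, a line at the mean and bars of 1 SD (n = 4). OAS1 lay between 225 and 437 CPM in HT55 and between 39.0 and 91.7 CPM in SW948, while MX1, IRF7 and IFI27 were higher in SW948 under DMSO.

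Under DMSO the lines held this gene group at different levels. All 9 genes were called between the lines, where 75.9% of 13249 genes tested were, so the count is read against that share. MX1, IRF7 and IFI27 were higher in SW948 (3 of 9, with 38.2% of all genes higher) and the remaining 6 were lower (37.7% of all genes lower). The largest difference upward was that of IFI27, at 1.66 ± 0.316 CPM in HT55 and 31.0 ± 1.32 CPM in SW948 (SD, n = 4). The largest downward was that of IFI6, at 10.4 ± 0.915 CPM in HT55 and 0.442 ± 0.0708 CPM in SW948. IFI6 and IFI27 both encode small hydrophobic proteins linked to mitochondria, and they lay at opposite ends of the comparison. These are bulk samples, in which fewer cells expressing a gene and less RNA per cell cannot be told apart.

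Levels per length of transcript, which allow genes to be set beside each other, used the Ensembl canonical transcript of each gene. The merged exons of a gene can be far longer, at 17984 bases for MX1 against 2776. The order of the genes can therefore depend on that choice. On this scale OAS1 was the most abundant of the 9 in HT55, at 144 ± 4.91 CPM per kb with DMSO and 236 ± 31.5 with itraconazole. IFI6 came next there, at 12.7 ± 1.13 and 14.6 ± 4.15 CPM per kb. In SW948 with DMSO, IFI27 led at 43.4 ± 1.85 CPM per kb, ahead of OAS1 at 25.5 ± 2.26. With itraconazole their order in SW948 turned, with OAS1 at 50.8 ± 6.12 and IFI27 at 36.4 ± 1.76 CPM per kb. By canonical transcript IFIT1 had the lowest level in every group, from 0.0145 CPM per kb in SW948 with DMSO to 0.918 in HT55 with itraconazole. OAS1 alone made up 90.1% and 90.6% of the summed CPM of the 9 genes in HT55 and 46.3% and 51.4% in SW948, so a sum over the group follows OAS1 in HT55.

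**Figure D2:**
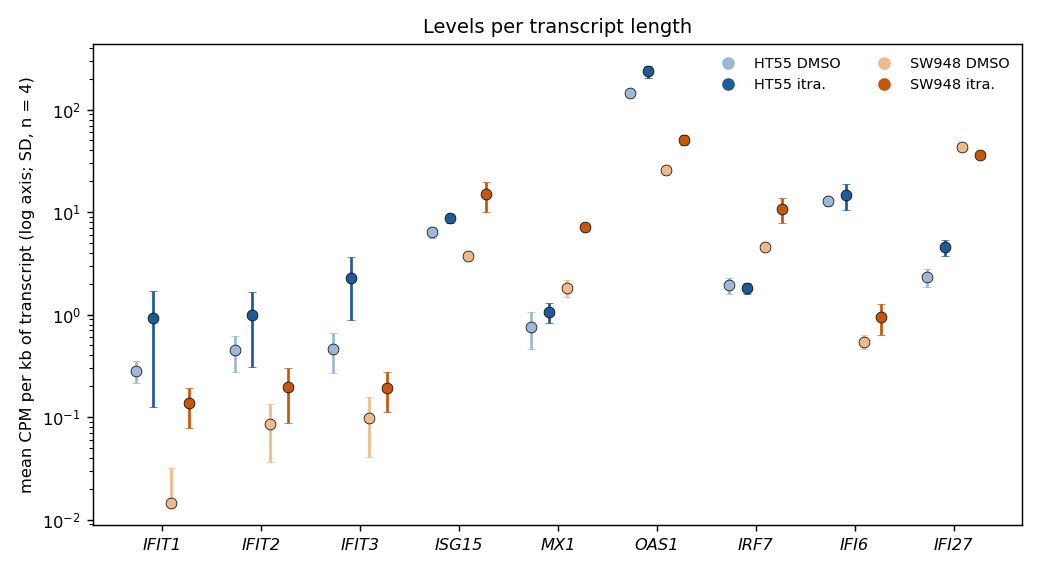
Mean CPM per kb of transcript (vertical axis, log scale) of each gene in the 4 groups, with bars of 1 SD (n = 4); no lower bar is drawn where the SD exceeds the mean, as for IFIT1 in SW948 with DMSO. OAS1 lay at 144 and 236 in HT55, and IFI27 and OAS1 were the highest in SW948.

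IFIT1, IFIT2 and IFIT3 encode tetratricopeptide repeat proteins, of which IFIT1 binds RNA and blocks translation of foreign transcripts. They lie close together on chromosome 10 (GRCh37), IFIT2 at 91043451 to 91069028, IFIT3 at 91087064 to 91137230 and IFIT1 at 91152303 to 91166244, all on the plus strand. In HT55 IFIT3 was at 0.433, 1.24, 1.49 and 1.30 CPM in the 4 DMSO libraries and at 7.72, 8.50, 1.62 and 3.73 CPM in the itraconazole libraries. Every treated library was above every control, with replicates 1 and 2 far higher than replicate 3, which sat just above the controls. The log2 fold change was 2.24 (SE 0.53), a 4.71-fold rise, with an adjusted p of 0.00483.

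IFIT1 in HT55 was at 1.62, 1.13, 1.17 and 0.949 CPM with DMSO and at 7.25, 6.49, 0.571 and 1.49 CPM with itraconazole. Treated replicates 1 and 2 were high, replicate 4 lay within the controls and replicate 3 below them, so the groups overlapped. Its log2 fold change of 1.65 (SE 0.67) had an adjusted p of 0.0561 and was not called. The gene passed the threshold in the DESeq2 Wald test (adjusted p = 0.022) and without treated replicate 3, where the log2 fold change was 2.06 with an adjusted p of 0.00104, or without treated replicate 4 (1.92, adjusted p = 0.0413). Without treated replicate 1 it was 1.18 with an adjusted p of 0.181. IFIT2 in HT55 ran from 0.849 to 2.27 CPM with DMSO and stood at 3.21, 6.61, 1.14 and 2.49 CPM with itraconazole. Here too replicate 3 was the lowest treated library and fell inside the control range. The log2 fold change of 1.11 (SE 0.49) was not called (adjusted p = 0.078), and without that library it was 1.44 with an adjusted p of 0.00407. Without treated replicate 2, the highest, it was 0.54 with an adjusted p of 0.279. Some of the IFIT2 exon sequence, 12.1%, is shared with an overlapping long noncoding gene on the same strand, so its counts are uncertain.

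Replicate 3 was the lowest treated HT55 library for 4 of the 9 genes, IFIT1, IFIT2, IFIT3 and MX1. It was also lowest for 62.5% of the 3340 genes called higher in HT55. The summed CPM of the IFIT genes was 18.2, 21.6, 3.33 and 7.71 in treated replicates 1 to 4, against 3.50 to 4.33 in the controls. OAS1 and IFI6 did not share that order. OAS1 was lowest in replicate 1, and IFI6 was highest in replicate 3.

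In SW948 the IFIT genes were near the limit of detection and did not pass the filter on low counts. IFIT1 had 0, 1, 0 and 2 counts with DMSO and 4, 5, 3 and 8 counts with itraconazole, so all 4 treated libraries were above the controls. The ratio of the summed counts per total was 7.17, with a 95% interval of 2.13 to 37.7 that covers counting error only. A two-sided exact permutation test of the CPM gave p = 0.0286, the smallest that 4 against 4 libraries allow, and 0.114 after adjustment over the 4 genes below the filter. Fits that kept the gene called it, with an adjusted p of 0.00549 in the DESeq2 Wald test. IFIT2 totalled 14 counts with DMSO and 23 with itraconazole (exact permutation p = 0.257), and IFIT3 11 and 16 (exact permutation p = 0.314). For these genes a difference was not detectable at this depth.

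Between the lines under DMSO, IFIT1 had 45 counts in HT55 and 3 in SW948, a ratio of 16.9 per total (95% counting interval 5.43 to 85.0). IFIT2 and IFIT3 were also lower in SW948, with log2 fold changes of -2.32 (SE 0.61, adjusted p = 0.00201) and -2.20 (SE 0.70, adjusted p = 0.00794). The order of the group means was the same for all of the IFIT genes, namely HT55 with itraconazole, HT55 with DMSO, SW948 with itraconazole and SW948 with DMSO. Among neighbours in that order, the HT55 groups overlapped for IFIT1 and IFIT2. HT55 with DMSO overlapped treated SW948 for IFIT2 and IFIT3, as did the SW948 groups with each other.

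OAS1 and MX1 are antiviral effectors of other kinds. OAS1 makes 2′-5′ oligoadenylates when it binds double-stranded RNA, while MX1 is a dynamin-like GTPase that blocks the entry and replication of several viruses. OAS1 lies on chromosome 12 at 113343661 to 113371024 on the plus strand. It was at 225, 236, 244 and 235 CPM in HT55 with DMSO and at 336, 346, 420 and 437 CPM with itraconazole. In SW948 it was at 40.7, 39.0, 47.1 and 39.9 CPM with DMSO and at 71.3, 91.7, 90.6 and 77.7 CPM with itraconazole. No group overlapped another, and even treated SW948 stayed under untreated HT55. OAS1 rose with treatment by a log2 fold change of 0.71 (SE 0.09, adjusted p = 0.000142) in HT55 and 0.96 (SE 0.09, adjusted p = 3.49e-07) in SW948. The difference between those responses, 0.28 (SE 0.14), was not called (adjusted p = 0.0923). It passed the threshold when HT55 itraconazole replicate 4 (0.33, adjusted p = 0.0452), SW948 DMSO replicate 3 (0.34, adjusted p = 0.0483) or SW948 itraconazole replicate 1 (0.34, adjusted p = 0.0325) was left out. Under DMSO OAS1 was lower in SW948 by a log2 fold change of -2.50 (SE 0.10, adjusted p = 2.36e-14).

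MX1 lies on chromosome 21 at 42791947 to 42841998 on the plus strand. In SW948 it was at 3.93, 5.58, 6.08 and 4.78 CPM with DMSO and at 18.8, 21.5, 19.6 and 19.0 CPM with itraconazole. The treated libraries were close together and far above the controls, with a log2 fold change of 1.92 (SE 0.13, adjusted p = 1.16e-08), or 3.80-fold. In HT55 it was at 1.84, 1.54, 1.70 and 3.32 CPM with DMSO and at 3.56, 3.19, 2.0 and 2.98 CPM with itraconazole. The HT55 groups overlapped through DMSO replicate 4, which was the second highest of the 8 libraries. The HT55 log2 fold change of 0.48 (SE 0.29) was not called (adjusted p = 0.184), and it was 0.78 with an adjusted p of 0.0363 without that library. The response was larger in SW948 than in HT55 by 1.48 on the log2 scale (SE 0.31, adjusted p = 0.000522).

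ISG15 is a ubiquitin-like protein that is joined to other proteins during the interferon response. It lies on chromosome 1 at 936518 to 949920 on the plus strand. In SW948 it was at 2.41, 2.37, 2.61 and 2.24 CPM with DMSO and at 6.61, 9.80, 13.7 and 7.80 CPM with itraconazole. The controls were nearly level, and the treated libraries were spread but all above them, with a log2 fold change of 1.93 (SE 0.23, adjusted p = 2.51e-06), or 3.81-fold. In HT55 ISG15 was at 3.36, 4.43, 4.25 and 4.15 CPM with DMSO and at 4.87, 5.55, 5.62 and 6.09 CPM with itraconazole. These groups did not overlap either, but the rise was small. The HT55 log2 fold change of 0.45 (SE 0.16, adjusted p = 0.0329) was no longer called with plain totals (0.28, adjusted p = 0.156), with the DESeq2 Wald test (0.46, adjusted p = 0.0759) or without any 1 of 5 of the 8 libraries, which were DMSO replicates 1, 3 and 4 and itraconazole replicates 2 and 4, with adjusted p-values up to 0.0897. The response in SW948 exceeded that in HT55 by 1.52 on the log2 scale (SE 0.29, adjusted p = 0.000212). Under DMSO ISG15 was lower in SW948 (log2 fold change -0.75, SE 0.22, adjusted p = 0.00444), whereas with itraconazole every SW948 library was above every HT55 library.

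IRF7 is the transcription factor that drives later and wider interferon production, and its own gene is induced by interferon. It lies on chromosome 11 at 612553 to 615983 on the minus strand. In SW948 it was at 8.75, 8.52, 9.64 and 8.17 CPM with DMSO and at 14.2, 23.6, 26.7 and 18.1 CPM with itraconazole. All treated libraries exceeded the controls, and the log2 fold change was 1.19 (SE 0.17, adjusted p = 1.91e-05). In HT55 it was at 4.22, 4.32, 3.50 and 2.85 CPM with DMSO and at 3.44, 3.19, 3.24 and 4.10 CPM with itraconazole. The HT55 groups overlapped along their whole ranges, with a log2 fold change of -0.11 (SE 0.19, adjusted p = 0.655). The responses differed between the lines by 1.33 on the log2 scale (SE 0.28, adjusted p = 0.000507). The treated SW948 libraries kept 1 order, replicate 3 highest and replicate 1 lowest, for ISG15 and for IRF7 alike. Along the first principal component of all genes in SW948 these libraries stood in a like order, with replicate 3 at 75.3 and replicate 1 at 49.5.

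IFI6 lies on chromosome 1 at 27992575 to 27998723 on the minus strand, and IFI27 on chromosome 14 at 94571182 to 94583032 on the plus strand. IFI27 was the one gene of the 9 whose called changes went in opposite directions. In HT55 it was at 2.06, 1.44, 1.38 and 1.78 CPM with DMSO and at 2.38, 3.54, 3.62 and 3.48 CPM with itraconazole. In SW948 it was at 32.4, 31.9, 29.7 and 30.1 CPM with DMSO and at 26.1, 26.8, 27.1 and 24.3 CPM with itraconazole. Neither pair of groups overlapped. IFI27 rose in HT55 by a log2 fold change of 0.96 (SE 0.23, adjusted p = 0.00467) and in SW948 it fell by 0.28 on the log2 scale (SE 0.08, adjusted p = 0.00445). The difference between the responses was -1.22 (SE 0.21, adjusted p = 5.77e-05). The fall in SW948 was small beside the difference between the lines under DMSO, 4.22 on the log2 scale (SE 0.14, adjusted p = 9.50e-16).

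IFI6 in HT55 was at 8.99, 10.8, 10.9 and 10.7 CPM with DMSO and at 10.6, 8.38, 16.4 and 12.1 CPM with itraconazole. The groups overlapped, with treated replicate 2 the lowest and treated replicate 3 the highest of the 8 libraries, and the log2 fold change of 0.20 (SE 0.19) was not called (adjusted p = 0.395). In SW948 it totalled 21 counts with DMSO and 26 with itraconazole and was below the filter. The exact permutation test gave p = 0.114 on plain CPM and, on TMM-scaled CPM, 0.0286, a scaling that was added after the data were seen. Exon sequence making up 23.1% of IFI6 is shared with the long noncoding gene LINC02574 on the same strand, so its values are uncertain.

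Counted over the 9 genes, 4 were called with itraconazole in HT55, IFIT3, ISG15, OAS1 and IFI27, where 54.0% of 12133 genes tested were called. All 4 were higher and none was lower, beside 27.5% of all genes higher and 26.5% lower. Without treated replicate 3 the number called was 6, while that of all genes rose from 6553 to 7911. The median log2 fold change of the 9 genes in HT55 was 0.71, against -0.02 over all genes tested. In SW948, 5 of the 9 passed the filter and all 5 were called, where 80.2% of 12505 genes tested were. ISG15, MX1, OAS1 and IRF7 were higher (38.9% of all genes were) and IFI27 was lower (41.3% of all genes were). OAS1 and ISG15 were the genes called higher in both lines. For the interaction 4 of 9 were called, ISG15, MX1, IRF7 and IFI27, where 53.9% of 13249 genes tested were.

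**Figure D3:**
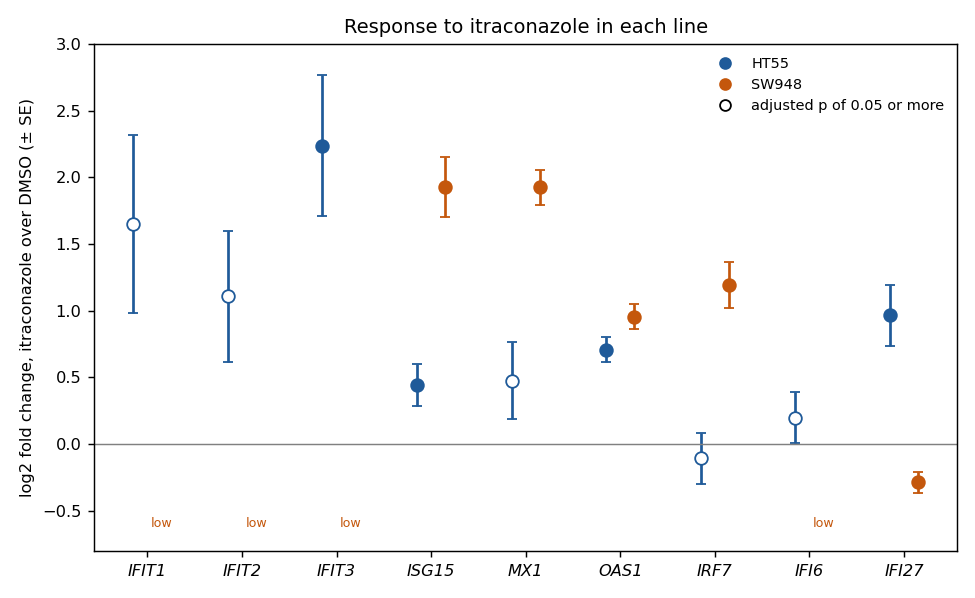
log2 fold change (vertical axis, itraconazole over DMSO, ± SE) of each gene in HT55 and SW948 from edgeR, with open symbols where the adjusted p was 0.05 or more and "low" where the gene was below the filter on low counts. IFIT3 had the largest change in HT55 (2.24), ISG15 and MX1 the largest in SW948 (1.93 and 1.92), and IFI27 lay on opposite sides of 0.

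**Figure D4:**
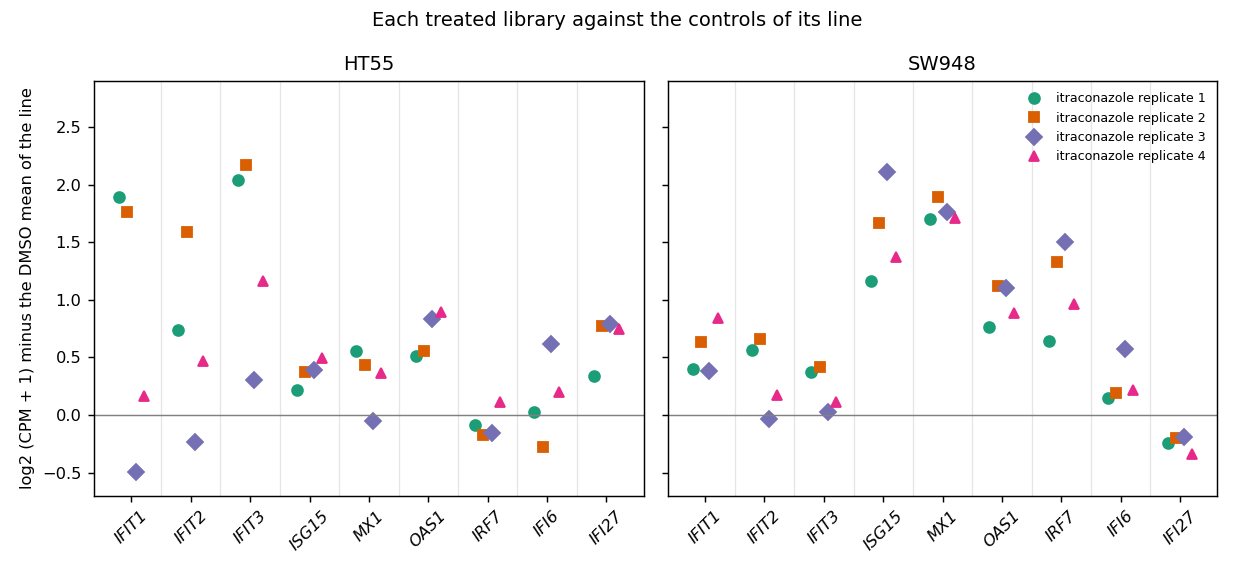
Difference (vertical axis) between log2(CPM + 1) of each treated library and that of the DMSO mean of its line, for each gene, with a marker for each replicate number. In HT55 the IFIT genes were high in replicates 1 and 2 and low in replicate 3, where IFIT1 was at -0.50, while OAS1 stayed between 0.52 and 0.89 in all 4.

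The other genes of the pathway were taken as 6 lists of 122 genes, of which 121 were matched. No treated library and no HT55 library had a count for any of the 12 interferon genes listed. By sampling of the counted reads alone, this allows up to 3 counts per gene and library. Reads aligning to several places were not counted, so for listed genes that share sequence the absence of counts sets no such limit. Which of the 12 genes share sequence was not tested. SW948 with DMSO had at most 3 counts summed over the 12 genes in a library. Over all 6 lists, 86 genes were tested in HT55, with 25 higher and 16 lower, and 86 in SW948, with 45 higher and 22 lower. Over all genes the shares were 27.5% higher and 26.5% lower in HT55 and 38.9% and 41.3% in SW948, and the counts of the lists that follow are to be read against these. Plain totals turned the counts over the 6 lists into 19 higher and 27 lower in HT55 and 31 and 33 in SW948. Under DMSO 31 of 90 were higher and 30 lower in SW948 (39 and 25 with plain totals), and the interaction called 27 higher and 19 lower (22 and 29 with plain totals). Over all genes 38.2% were higher and 37.7% lower between the lines, and 53.9% were called for the interaction.

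Among the 13 receptor and JAK-STAT genes, 5 were higher and 1 lower in HT55, and 6 were higher and 3 lower in SW948. IFNLR1, the specific chain of the receptor for lambda interferons, rose in both lines, by a log2 fold change of 1.30 (SE 0.13, adjusted p = 3.85e-05) in HT55 and 1.49 (SE 0.12, adjusted p = 8.04e-08) in SW948. IFNAR1 and IFNAR2, which receive the type I interferons, fell in SW948 by 1.34 and 1.32 on the log2 scale (adjusted p = 3.41e-09 and 1.52e-06), and their interaction was called (adjusted p = 1.68e-08 and 0.00074). STAT2 rose by 0.27 in HT55 (SE 0.10, adjusted p = 0.0335), a call lost with plain totals (0.11, adjusted p = 0.382) and without any 1 of 5 libraries, DMSO replicates 2, 3 and 4 and itraconazole replicates 1 and 2. In SW948 its log2 fold change of -0.14 was not called (adjusted p = 0.274), but it was with plain totals (-0.46, adjusted p = 0.00596) and without SW948 itraconazole replicate 1 (-0.23, adjusted p = 0.0435). IRF9, the DNA-binding partner of STAT2, was at 1.79 ± 0.236 CPM in HT55 and 8.71 ± 0.946 CPM in SW948 under DMSO (SD, n = 4). The difference was 2.27 on the log2 scale (SE 0.18, adjusted p = 6.11e-10). With itraconazole it rose by 0.50 in SW948 (adjusted p = 0.00123), a call lost with plain totals (0.17, adjusted p = 0.228). In HT55 its log2 fold change was 0.14 (adjusted p = 0.665), which plain totals and leaving out treated replicate 3 turned negative.

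Of the 7 other interferon regulatory factors 6 were tested in each line, with 3 higher and 1 lower in HT55 and 4 higher and 1 lower in SW948. IRF2, a factor that can repress interferon targets, rose by 0.92 (SE 0.10, adjusted p = 5.34e-05) in HT55 and by 1.70 (SE 0.07, adjusted p = 1.20e-10) in SW948. IRF1, an early activator of these targets, fell by 0.68 in HT55 (adjusted p = 0.000592) and by 0.36 in SW948 (adjusted p = 0.00298). IRF8 rose by 1.19 in SW948 (adjusted p = 9.50e-07) and by 1.65 in HT55 (SE 0.37, adjusted p = 0.00352). In treated HT55 it was at 91.8, 98, 22.5 and 52.8 CPM, against 18.8 to 22.5 CPM in the controls. Replicates 1 and 2 were again the highest and replicate 3 the lowest, an observation on IRF8 chosen after its values were seen.

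Of the nucleic acid sensing genes, 1 of 11 tested was higher and 5 lower in HT55, and 4 of 10 were higher and 3 lower in SW948. CGAS, which senses DNA in the cytosol, was at 2.88 ± 0.596 CPM in SW948 with DMSO and 13.6 ± 2.33 CPM with itraconazole (SD, n = 4). It rose by 2.19 on the log2 scale (SE 0.18, adjusted p = 5.21e-08). STING1, the adaptor downstream of it, went from 7.94 ± 1.06 to 0.809 ± 0.324 CPM there and fell by 3.30 on the log2 scale (SE 0.23, adjusted p = 1.50e-08). In HT55 CGAS was near the limit of detection, with 3 counts in total with DMSO and 5 with itraconazole. STING1 in HT55 was at 12.3 to 16.3 CPM with DMSO and 7.08 to 12.9 CPM with itraconazole, and these groups overlapped. MAVS, the adaptor of the RNA sensors, fell by 1.29 in SW948 (adjusted p = 1.47e-08), and the RNA sensor IFIH1 rose by 0.99 (adjusted p = 3.58e-07). In HT55 the receptor of double-stranded RNA TLR3 fell by 1.12 (adjusted p = 0.000821) and ZBP1 by 1.40 (adjusted p = 0.00595), and TBK1, a kinase that activates IRF proteins, rose by 0.45 (adjusted p = 0.0019). TBK1 was also higher with itraconazole in SW948, at 50.3 to 56.6 CPM against 41.3 to 47.7 CPM with DMSO. The ubiquitin ligase TRIM25 fell in both lines, by 0.30 (adjusted p = 0.00425) in HT55 and by 0.83 (adjusted p = 3.32e-07) in SW948.

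Among 10 negative regulators, 3 of 8 tested were higher and none lower in HT55, and 6 of 9 were higher and 1 lower in SW948. USP18, which removes ISG15 from proteins and dampens receptor signalling, rose by 0.67 in SW948 (SE 0.22, adjusted p = 0.0117). That call was lost with plain totals (0.34, adjusted p = 0.176) and in the DESeq2 Wald test (0.68, adjusted p = 0.0564). In HT55 its log2 fold change was 0.09 (adjusted p = 0.833), and -0.07 with plain totals. It also turned negative without DMSO replicate 1 or itraconazole replicate 4. TREX1, a nuclease that clears cytosolic DNA, rose by 0.70 in both lines (adjusted p = 0.00819 in HT55 and 0.00431 in SW948), the latter lost with plain totals (0.37, adjusted p = 0.107). The phosphatases PTPN2 and PTPN11 rose in SW948 by 0.78 and 0.75, and PTPN6 fell by 0.76 (adjusted p = 3.17e-05, 8.08e-08 and 3.98e-06).

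Of the 65 other interferon-stimulated genes, 48 were tested in each line. In HT55 13 were higher and 9 lower, with a median log2 fold change of 0.01 against -0.02 over all genes. In SW948 25 were higher and 14 lower, with a median of 0.28 against -0.03 over all genes. OASL, a relative of OAS1 that lacks its enzyme activity, was at 2.17 ± 0.564 CPM in HT55 with DMSO and 6.84 ± 1.76 with itraconazole, and at 1.54 ± 0.564 and 13.8 ± 1.13 CPM in SW948 (SD, n = 4). It rose by 1.63 in HT55 (SE 0.25, adjusted p = 0.000445) and 3.14 in SW948 (SE 0.19, adjusted p = 3.33e-09), and the responses differed by 1.53 (SE 0.35, adjusted p = 0.000986). GBP2, an interferon-induced GTPase, rose by 2.39 in HT55 (adjusted p = 0.000131). RSAD2, the antiviral protein viperin, rose by 1.86 in HT55 (SE 0.38, adjusted p = 0.00223), from few counts, 1 to 7 per library with DMSO and 11 to 16 with itraconazole. ISG20, an exonuclease, rose by 1.66 there (adjusted p = 4.04e-05). It was also higher with itraconazole in SW948, at 48.6 to 63.6 CPM against 20.7 to 24.7 CPM with DMSO. In SW948 PML, which organises nuclear bodies, rose by 2.25 (adjusted p = 6.64e-10), the membrane protein IFITM1 by 1.99 (adjusted p = 1.67e-10), and HERC5 and UBA7, the ligase and activating enzyme for ISG15, by 2.18 (adjusted p = 1.82e-05) and 1.74 (adjusted p = 2.23e-06). IFITM1 was also higher with itraconazole in HT55, at 18.9 to 22 CPM against 11.1 to 14.8 CPM with DMSO. LGALS9, a galectin, rose in both lines, by 1.02 in HT55 (adjusted p = 0.00847) and 1.70 in SW948 (adjusted p = 3.16e-06). LAMP3, a lysosomal membrane protein, went the other way and fell by 1.96 in HT55 (adjusted p = 4.10e-05) and by 2.96 in SW948 (adjusted p = 2.74e-10). SLFN5 fell by 1.03 in HT55 (adjusted p = 0.00033) and SAMD9 by 2.29 in SW948 (adjusted p = 0.000409). In SW948 SLFN5 was at 22.3 to 40.6 CPM with DMSO and 19.5 to 23.9 CPM with itraconazole, and these groups overlapped. SAMD9 in SW948 rested on 14 to 23 counts per library with DMSO and 1 to 7 with itraconazole. In HT55 SAMD9 was at 19.2 to 21.3 CPM with DMSO and lower with itraconazole, at 6.26 to 17 CPM without overlap.

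**Figure D5:**
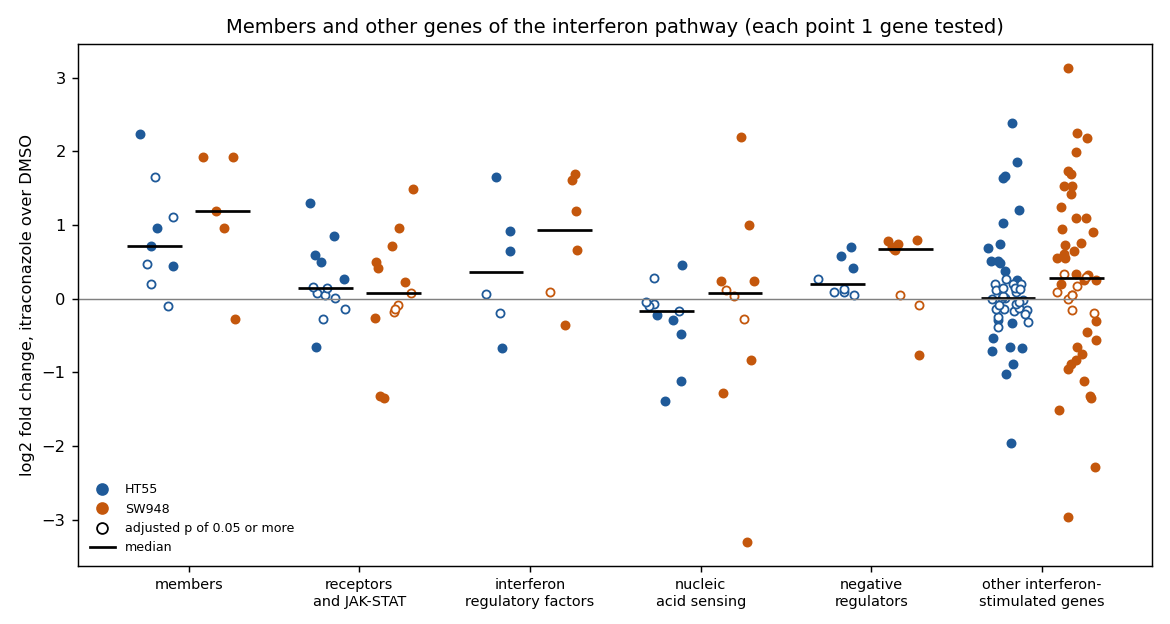
log2 fold change with itraconazole (vertical axis) of every gene tested in the 9 genes ("members") and 5 of the pathway lists, in HT55 and SW948, with open points where the adjusted p was 0.05 or more and a line at the median of each list. The other interferon-stimulated genes had medians of 0.01 and 0.28, and each list held changes in both directions in SW948. With plain totals in place of TMM the points lie lower, with a median shift of -0.16 in HT55 and -0.33 in SW948.

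As a description of the shape over the 16 libraries, the log2 CPM of each gene was standardised and averaged over the 9. ISG15 (r = 0.81) and IFIT1 (r = 0.79) followed that mean most closely, IFI6 (r = 0.46) and MX1 (r = 0.20) less so, and IRF7 (r = -0.04) and IFI27 (r = -0.35) did not follow it. Each gene is itself part of the mean, which raises its r. Pairs of the 9 genes ran from r = -0.966 for IFI6 and IFI27 to 0.965 for OAS1 and IFI6, so the mean is not a pattern that all 9 share. The 10 other genes most like the mean, of 11353 ranked, were FTL, C1orf43, GLB1, UBE2G1, NR1D1, MGAT4B, KCTD13, FKBP4, MBOAT2 and LAMC1, with r from 0.98 to 0.99, and none of them was on the pathway lists. The 16 libraries share lines and treatments and are not independent points.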

How the data were processed

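RNA was measured by single-end sequencing of 50 bases in 16 libraries, 4 for each line and treatment. The authors aligned the reads to hg19 and deposited read counts for every gene and library, as raw numbers without normalization. The submitters' processing notes name TopHat, HTSeq and DESeq, and their versions, the annotation release and the strand setting are not given in the sources used here. Reads with more than 1 alignment (22.0% to 27.9% of reads per library) and reads outside or ambiguous between genes were not counted in genes, so genes sharing sequence are uncertain.

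Symbols and GRCh37 positions came from GENCODE, and 47098 identifiers had a symbol. The 9 genes and all lists were chosen with earlier results of these data known. Counts were tested with edgeR 4.0.16 (TMM, filterByExpr, quasi-likelihood F test, R 4.3.3), with Benjamini-Hochberg adjustment over all genes tested and calls at an adjusted p under 0.05. Each line was fitted on its 8 libraries, and the line comparison and the interaction on all 16. SEs come from the fold change and F. The code was tested on simulated data. DESeq2 1.42.0 was an alternative. Others were its size factors, plain totals, no filter, a threshold of 0.01, a replicate block, 1 fit on all 16 libraries and leaving out each library. Genes below the filter had a two-sided exact permutation test of CPM from plain totals. Counting intervals are exact conditional binomial.

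Named pathway genes were STAT2, IRF9, USP18 and, from each list and line, up to 5 called genes (8 for other interferon-stimulated genes) with the largest changes among those whose groups did not overlap. A few genes that this rule names are not reported here. Total depth was 8269406 to 11110814 gene counts per library. The p-values of the fits set each difference between groups against the spread between these libraries.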

Additional observations from a re-analysis of the deposited data

Results flagged for a closer look

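The response to itraconazole differed between the lines, by the interaction test of edgeR, for 4 of the 9 genes, beside 53.9% of all 13249 genes tested. The difference (SW948 minus HT55, log2) was 1.52 for ISG15, 1.48 for MX1, 1.33 for IRF7 and -1.22 for IFI27.

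In 4 of the 36 groups of 4 libraries, 1 library stood apart from the other 3 by a gap, as a share of the group's whole range, past Dixon's 95% critical value. About 1 in 20 groups is marked in this way by chance. For MX1 in HT55 with DMSO the gap was 0.831 of the range, with replicate 4 highest at 3.32 CPM. For IFI6 in HT55 with DMSO it was 0.895, with replicate 1 lowest at 8.99 CPM. For IFI6 in SW948 with itraconazole it was 0.86, with replicate 3 highest at 1.15 CPM, from 9 counts. For IFI27 in HT55 with itraconazole it was 0.887, with replicate 1 lowest at 2.38 CPM.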

How the results depend on the processing

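The number of the 9 genes called ranged over the alternatives from 3 to 6 in HT55 (4 as reported), from 5 to 6 in SW948 (5), stayed at 9 between the lines and ranged from 4 to 5 for the interaction (4). Leaving out each library in turn gave 3 to 6, 5 to 5, 9 to 9 and 4 to 5, and 5560 to 7911 of all genes in HT55. Calls that changed were those of IFIT1, IFIT2, ISG15 and MX1 in HT55 and OAS1 in the interaction, and IFIT1 in SW948 was called in the fits that kept it. Without a filter, IFIT1 (1.64, adjusted p = 0.00783) and IFIT2 (1.10, adjusted p = 0.029) were called in HT55 and ISG15 (0.43, adjusted p = 0.108) was not, and the same held in 1 fit on all 16 libraries (adjusted p = 0.0143, 0.0334 and 0.0714). The cause was not tested. No called change of the 9 genes turned its direction under any alternative run. The interaction of IFIT2 (0.03, adjusted p = 0.964) became -0.13 with plain totals and ran from -0.29 to 0.61 without 1 library. The changes in HT55 of IRF9 (-0.0164 with plain totals, -0.0803 to 0.295 without 1 library) and USP18 (-0.0671, and -0.213 to 0.243) also turned, and neither was called.

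The replicate numbers were checked for pairing. Deviations of same-numbered libraries correlated between -0.04 and 0.14 in HT55 and between 0.00 and 0.13 in SW948, and the own number was best in 1 of 4 and 2 of 4 cases. The highest correlation with another number was 0.0313 to 0.0673 in HT55 and 0.0208 to 0.0616 in SW948. Replicate 3 was closest to its own number in both lines. With 4 libraries per group this check cannot settle whether the libraries were paired. With the replicate block 5 of the 9 genes were called in HT55, with IFIT1 and IFIT2 gained (adjusted p = 0.0282 and 0.025) and ISG15 lost (adjusted p = 0.0567), and 5, 9 and 4 in the other comparisons. The block also ended the call of STAT2 in HT55 (0.27, adjusted p = 0.0586). Depth limits IFIT1, IFIT2, IFIT3 and IFI6 in SW948, where they had 3 to 26 counts per group.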
